A study of Mus musculus with 11 samples.

Results

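The libraries numbered S1 to S7 were set against those numbered S8 to S11 in bulk RNA sequencing of 11 OvTrpMyc mouse cancer cell lines. The split has 7 libraries on one side and 4 on the other, and it takes in all 11 libraries of the series. It was chosen because the 2 runs of numbers differed in these counts, above all in genes of adult skeletal muscle, so every difference between them is a description and carries no test. The labels give each library its number and do not say what the number stands for.

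OvTrpMyc mice (genotype Ovgp1-Trp53-R270H-Myc in the labels) are C57BL/6 mice heterozygous for a transgene in which the promoter of Ovgp1, an oviduct glycoprotein gene, drives mutant p53-R270H together with Myc. All 11 lines are labelled with this genotype, none was treated, and all were grown in RPMI 1640 medium from minced organs or tumors of moribund animals, whose ages were not used here. The study describes the F361 line (S5) as no longer expressing the mutant p53 copy, and alleles were not analysed here. S1 (F364 ROV), S3 (F364 LOV), S4 (F326 ROV), S6 (F319 ROV) and S7 (F318 ROV) came from an ovary, S2 from a splenic tumor of F326 and S5 from a peritoneal tumor of F361. S8 (F339 ROV) and S9 (F318 LOV) also came from an ovary, and S10 (F319) and S11 (F333) from a uterus. S1 to S7 hold lines of 5 mice and S8 to S11 lines of 4, with F318 and F319 on both sides, so lines of 1 mouse are not independent. Both uterus lines lie in S8 to S11 and both tumor-site lines in S1 to S7, so organ and library number are partly confounded. Each line is 1 library, with 13580525 to 22333181 counts on genes in S1 to S7 and 21542612 to 27044598 in S8 to S11. Values are CPM, or reads on a gene per 1000000 counts of its library, and 15954 of 28284 genes had enough counts to be fitted.

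Cultured tumor cells of mesenchymal habit make collagens and other matrix proteins, divide, and so express the genes of DNA replication (S phase) and mitosis (M phase). A mature skeletal muscle fiber does not divide, and it devotes much of its mRNA to contractile proteins such as myosin heavy chains and to the calcium pumps and channels of its membranes. If RNA of such a tissue is mixed into a library of cultured cells, every gene that only the cells express falls by 1 common factor in that library, and every gene that only the tissue expresses keeps its ratio to the other genes of the tissue. Both statements are arithmetic, and the gene groups below were set against them. The counts alone cannot tell RNA added after culture from RNA made in the culture.

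Myh4, on chromosome 11 of GRCm38 from 67238029 to 67260446, encodes the myosin heavy chain of fast IIb fibers. It was at 30631, 16733, 32188, 27684, 25343, 28847 and 12090 CPM in S1 to S7. In S8 to S11 it was at 1568, 339.1, 1057 and 2676 CPM. Every library of S1 to S7 lay above every library of S8 to S11, and the mean was 17.6-fold higher (24788 ± 7530, SD, n = 7 libraries, against 1410 ± 983, n = 4).

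Atp2a1 (chromosome 7, 126445858 to 126463108) encodes the calcium pump of the fast fiber's sarcoplasmic reticulum, and it overlaps Rabep2 on the opposite strand, so that its reads are uncertain where the counting did not use strand. It was at 15867, 13233, 15394, 14053, 13769, 12678 and 9749 CPM in S1 to S7, and at 1189, 190, 850 and 1048 CPM in S8 to S11. The groups again did not overlap, and S7 was the lowest of its group for both genes while S9 was the lowest of all 11.

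Col3a1 (chromosome 1, 45311538 to 45349706), a fibrillar collagen chain of connective tissue, had the opposite order. It was at 13.2, 576, 89.5, 232, 215, 562 and 1592 CPM in S1 to S7, and at 4187, 3811, 2931 and 1988 CPM in S8 to S11. Its mean was 6.89-fold lower in S1 to S7, but within that group the lowest library, S1, and the highest, S7, were far apart.

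Myc (chromosome 15, 61985391 to 61990374) encodes the transcription factor that the transgene also carries, and reads of the transgene and of the endogenous gene were not separated. Its level was 53.3, 22.2, 50.2, 31.9, 6.92, 55.3 and 93.6 CPM in S1 to S7 and 184, 280, 291 and 153 CPM in S8 to S11. Myc was therefore lower in all of S1 to S7, with a mean 5.07-fold lower and the lowest level in S5, the peritoneal tumor line.

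**Figure D1:**
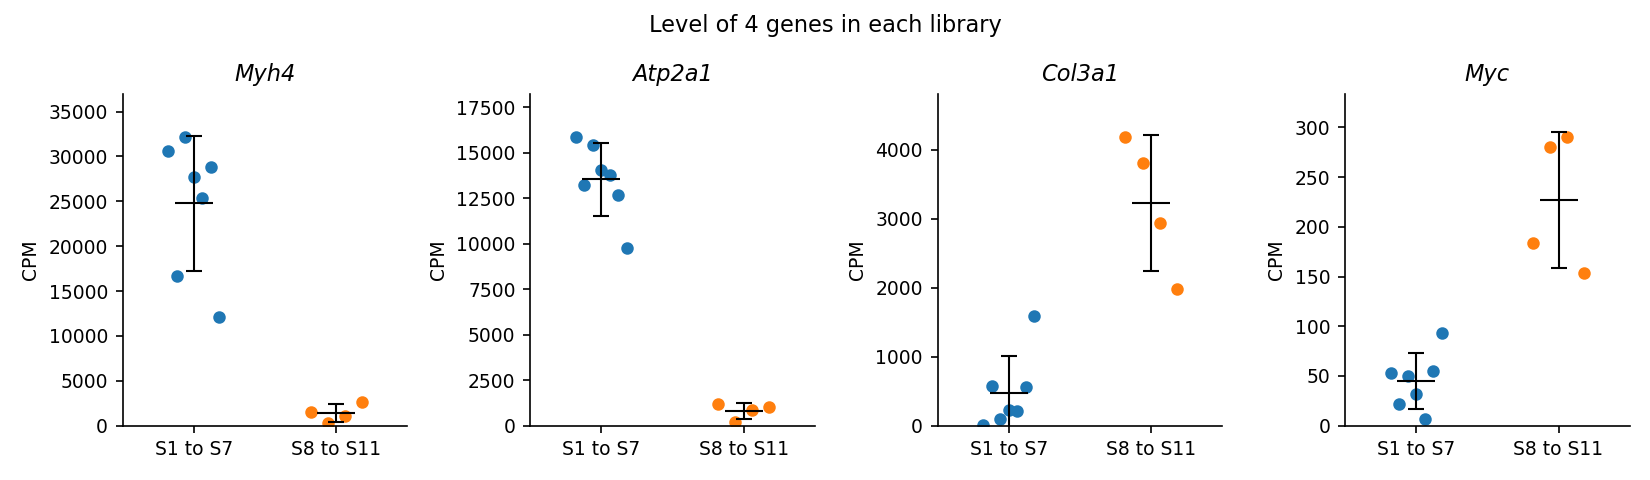
Level in CPM of Myh4, Atp2a1, Col3a1 and Myc in each library, with 1 point per library of S1 to S7 (blue) and S8 to S11 (orange) and bars for the mean and SD (n = 7 and n = 4). Both muscle genes are higher and Col3a1 and Myc lower in every library of S1 to S7, where Col3a1 runs from 13.2 to 1592 CPM.

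Promoter sequences are shown for 2 muscle and 2 replication genes, to give the letters that some genes of each kind carry before their start. The E-box CAGCTG, a palindrome that myogenic factors can bind, was found in the window from 250 bases before to 50 after the start in 14 of 26 muscle fiber genes with a RefSeq promoter (53.8%), against 16.4% of all 14877 promoters of genes in the table. An E2F-type site, TTTCGCGC on either strand, was in 3 of 14 S phase promoters (21.4%), 1 of 18 M phase promoters (5.56%) and 0.43% of all. Over the other lists the E-box share varied on small numbers, for example 3 of 6 smooth muscle, 3 of 6 adipocyte, 3 of 9 slow fiber, 0 of 5 developing muscle, 1 of 11 collagen and 4 of 11 other matrix promoters, and no test was made. The sequences below are the 250 bases before the start in GRCm38.p6, 5′ to 3′ on the gene's strand, with the motif in capitals, for Myh4 (chr11:67237562-67237811, plus strand), Atp2a1 (chr7:126463074-126463323, minus strand), and the replication helicase subunits Mcm5 (chr8:75109259-75109508, plus strand) and Mcm6 (chr1:128359706-128359955, minus strand).
Myh4: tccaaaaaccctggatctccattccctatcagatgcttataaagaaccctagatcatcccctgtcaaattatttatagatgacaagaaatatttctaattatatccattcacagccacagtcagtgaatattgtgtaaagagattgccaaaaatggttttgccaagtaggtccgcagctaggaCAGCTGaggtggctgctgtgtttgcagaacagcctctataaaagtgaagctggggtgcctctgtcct
Atp2a1: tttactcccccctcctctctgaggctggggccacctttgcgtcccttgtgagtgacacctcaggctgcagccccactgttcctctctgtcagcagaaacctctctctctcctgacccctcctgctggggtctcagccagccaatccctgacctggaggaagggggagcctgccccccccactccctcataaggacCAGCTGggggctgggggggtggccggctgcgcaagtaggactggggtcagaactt
Mcm5: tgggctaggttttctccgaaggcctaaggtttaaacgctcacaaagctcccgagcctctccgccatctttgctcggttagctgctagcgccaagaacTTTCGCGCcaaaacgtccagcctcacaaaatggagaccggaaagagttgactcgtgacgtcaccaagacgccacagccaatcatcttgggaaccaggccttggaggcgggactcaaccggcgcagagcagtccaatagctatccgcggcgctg
Mcm6: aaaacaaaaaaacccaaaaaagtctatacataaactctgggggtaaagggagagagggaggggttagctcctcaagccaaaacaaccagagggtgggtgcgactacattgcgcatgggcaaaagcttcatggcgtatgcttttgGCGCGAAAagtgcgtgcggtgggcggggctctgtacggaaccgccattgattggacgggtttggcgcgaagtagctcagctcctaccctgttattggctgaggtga
A match in these windows is a description of letters, not a shown binding site.

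Over all genes tested, the median log2 fold change of S1 to S7 over S8 to S11 was -0.40, and it was above 0 for 6393 genes (40.1%) and below 0 for 9561 (59.9%). Of the 15954 genes, 2723 (17.1%) were higher in every library of S1 to S7 than in any of S8 to S11, and 4158 (26.1%) were lower in every one. The edgeR quasi-likelihood fit called 3734 genes (23.4%) higher and 6078 (38.1%) lower at a Benjamini-Hochberg adjusted p under 0.05. These are the background shares for the counts that follow, and since the split was chosen on these counts nothing is read from them. Of the edgeR calls, 38.1% were higher in S1 to S7 on the deposited totals. That share was 51.1% with TMM factors, 51.7% with DESeq2 size factors and 45.2% with totals that leave out the muscle fiber genes, because these scalings moved the median of all genes by 0.37, 0.39 and 0.20. With the mouse as a replicate block, 1867 genes were called higher and 1401 lower, and in that fit only the lines of F318 and F319 compare the groups within a mouse.

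**Figure D2:**
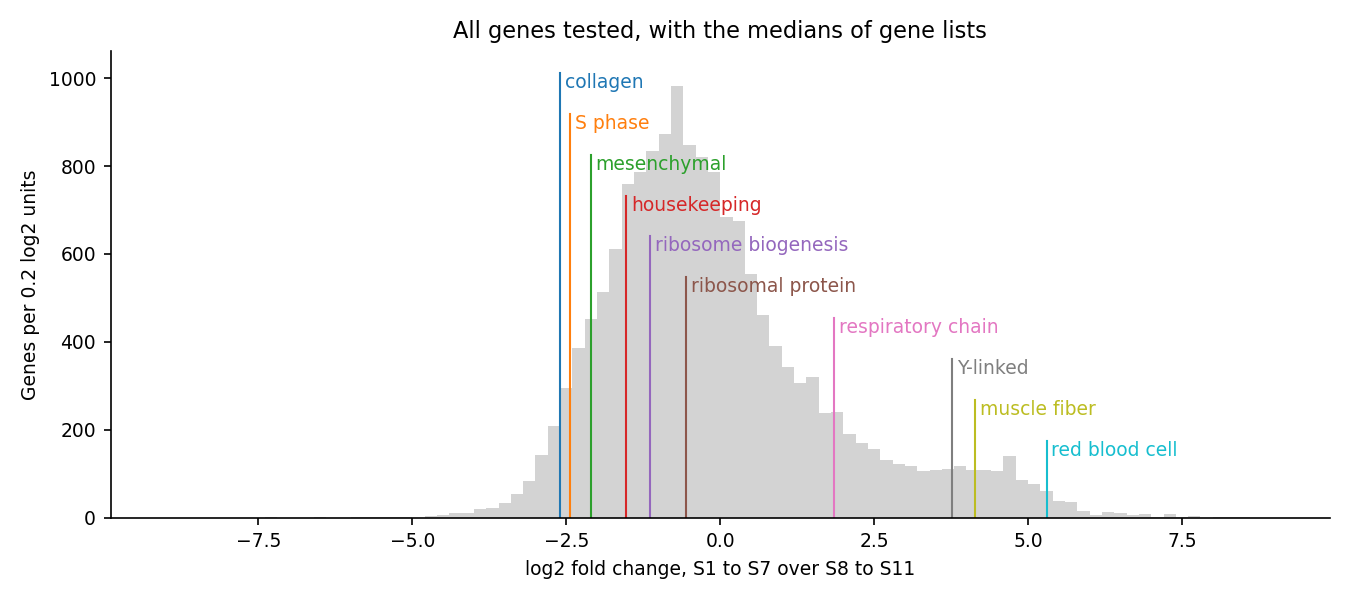
Number of genes per 0.2 log2 units of the fold change of S1 to S7 over S8 to S11, over all 15954 genes tested, with vertical lines at the medians of 10 gene lists. Collagen (-2.60) and S phase (-2.44) lie at the low edge, ribosomal proteins (-0.56) near the middle and the muscle fiber (4.14) and red blood cell (5.30) lists at the high edge.

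Of the 40 muscle fiber genes 39 had a row in the counts, so the shares here leave out Acta1. The list took 15.0, 12.8, 15.0, 15.3, 15.9, 13.4 and 8.39% of all counts in S1 to S7, and 1.11, 0.171, 0.744 and 1.34% in S8 to S11. The libraries nearest the edge of the split were thus S7 and S11. The mean share differed 16.2-fold, a log2 fold of 4.02 that serves below as the muscle scale. Of the 38 list genes tested, 36 did not overlap between the groups and 0 were lower. The lowest log2 fold change, 3.06, was that of Tnnt3, the fast troponin T. Myh1, the myosin of IIx fibers, was at 9039 to 16836 CPM in S1 to S7 and at 105 to 1822 CPM in S8 to S11. Ttn, which encodes the molecular spring titin, was at 4847 to 10542 CPM against 69.4 to 659 CPM, and Ryr1, the calcium release channel, at 4320 to 7013 CPM against 33.3 to 241 CPM. Transcripts of these genes were found in all 11 libraries, and in S9, the lowest, Myh4 had 339.1 CPM.

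Other lists of genes that epithelial tumor cells are not known for were higher in S1 to S7 at a similar scale. The 4 Y-linked genes tested (Ddx3y, Uty, Eif2s3y and Kdm5d), which females lack, had a median log2 fold of 3.77, and 4 of 4 did not overlap. Ddx3y, an RNA helicase gene, was at 92.7, 74.1, 98.4, 59.6, 84.5, 82.3 and 59.7 CPM in S1 to S7 and at 10.3, 1.05, 4.88 and 5.34 CPM in S8 to S11. All lines labelled by a female organ in S1 to S7 thus held transcripts of Y-linked genes. The median was 4.24 for 7 developing muscle genes, 4.02 for 9 slow fiber genes, 4.73 for 9 mature adipocyte genes, 4.09 for 11 endothelial genes, 3.93 for 10 leukocyte genes and 5.30 for 5 red blood cell genes. Without overlap and higher were 6, 6, 4, 8, 8 and 5 of them, in the same order. By its median level the adipocyte list did not separate S7, at 130% of the S8 to S11 mean, against 233% in S11 and 628 to 3415% in S1 to S6. Its summed CPM did separate S7, at 1378 CPM against 17.9 to 205 CPM in S8 to S11. In the F318 pair, S7 against S9, the adipocyte genes differed by a median of 0.42 in log2(CPM + 1), with 2 of 9 lower.

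Exceptions within these lists were few. Emcn, an endothelial sialomucin, had a log2 fold of -1.79 because S8 held 154 CPM of it, against 7.15 to 14.7 CPM in S1 to S7 and at most 1.67 CPM in S9 to S11. Adrb3, the adrenergic receptor of fat, had -1.75 at no more than 2.51 CPM in any library. The heart list had 4 of 9 genes tested, with a median of 0.76 over members that went both ways. The atrial myosin Myh6 had a log2 fold of 5.83 and the troponin Tnnt2 -2.16, and 2 of the 4 were higher without overlap. The heart hormone Nppa, which was not tested, was at no more than 0.401 CPM. The nerve sheath list had a median of 2.21 over 6 genes, with 3 of them higher without overlap. The neuron list of 3 tested genes had -0.09, a sign that turned positive under all 3 other scalings. Of the liver list 1 of 8 genes was tested, Cyp2e1, at 3.67, and albumin (Alb) was at no more than 1.35 CPM.

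Set against the muscle fiber list within each library, some of these lists had overlapping ratios in the 2 groups. Per 1000 CPM of muscle fiber genes, the Y-linked list had 0.833 to 1.56 CPM in S1 to S7 and 0.849 to 1.72 CPM in S8 to S11. The developing muscle list had 2.35 to 4.52 against 2.74 to 3.05 CPM, and the adipocyte list 11.1 to 23.2 against 9.91 to 15.2 CPM. Plin4, a lipid droplet protein gene that muscle also expresses, made up 48.0% of the summed adipocyte list in S1 to S7, and the fat hormone Adipoq itself was at 0.343 to 9.20 CPM there and at 0 to 1.02 CPM in S8 to S11. Without the leading gene of each list, the ranges were 0.400 to 0.851 against 0.409 to 0.802 CPM for the Y-linked list without Ddx3y. They were 0.481 to 2.85 against 0.628 to 1.63 CPM for developing muscle without the perinatal myosin Myh8, which made up 55.0% of that list in S1 to S7, and 2.63 to 13.2 against 4.87 to 12.2 CPM for adipocytes without Plin4. The 2 ranges overlapped for all 3 lists either way, but without Myh8 and Plin4 the developing muscle and adipocyte lists varied more within S1 to S7.

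The slow fiber list (1.03 to 4.07 against 2.31 to 3.38 CPM) and the leukocyte list (0.744 to 1.44 against 0.832 to 7.31 CPM) overlapped as well. In other lists single libraries stood apart, and the nerve sheath list did not overlap between the groups. The endothelial list had 2.10 to 5.25 CPM per 1000 in S1 to S7, and 26.6, 8.36, 2.84 and 2.42 CPM in S8 to S11, so S8 and S9 lay above and the uterus lines within the range of S1 to S7. Nerve sheath had 0.218 to 0.734 CPM per 1000 in S1 to S7 and 1.14 to 9.49 CPM in S8 to S11. Red blood cell genes stood at 6.20, 9.51 and 6.04 CPM per 1000 in S1, S2 and S3, and at 1.11 to 1.66 CPM in S4 to S7. In S8 to S11 they were at 1.41 to 2.74 CPM per 1000, so it was S1 to S3 that stood apart from the other libraries.

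**Figure D3:**
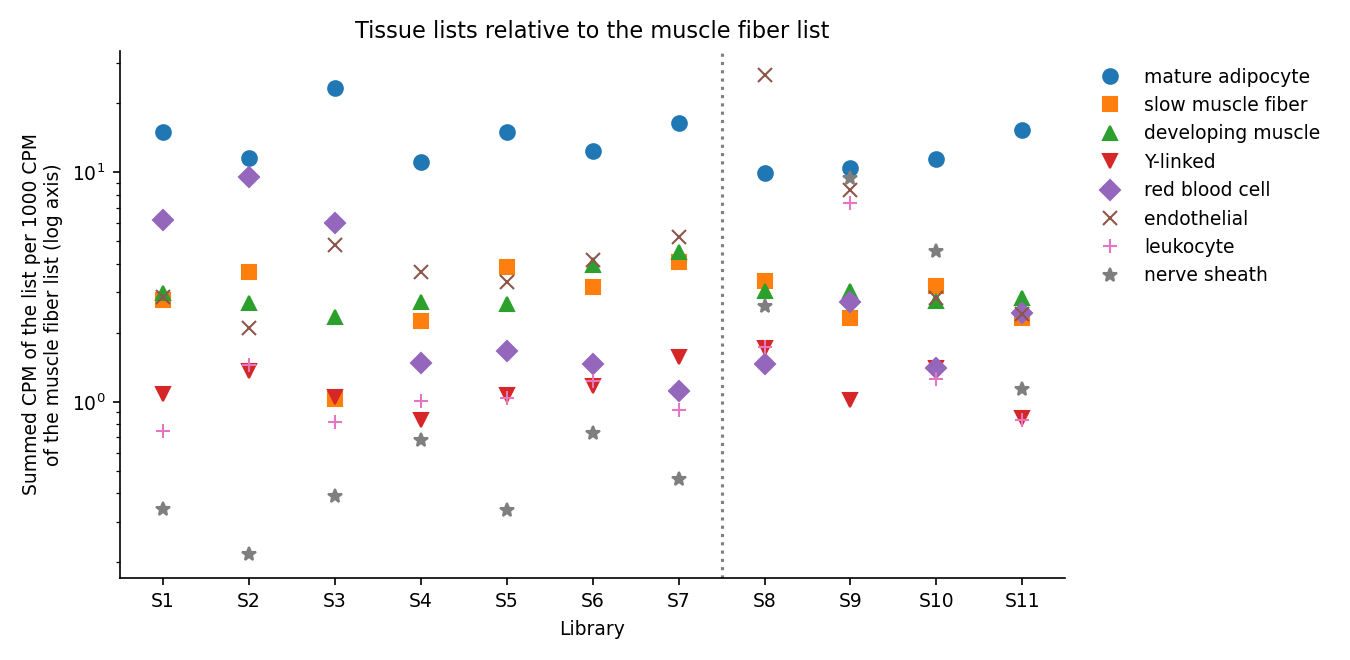
Summed CPM of 8 tissue lists per 1000 CPM of the muscle fiber list in each library (log axis), with a dotted line between S7 and S8. Y-linked genes stay between 0.833 and 1.72 over all 11 libraries, red blood cell genes are at 6.04 to 9.51 in S1 to S3, and endothelial genes reach 26.6 in S8.

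Many genes that were higher in S1 to S7 varied widely within that group. Myod1, which commits cells to the muscle lineage, was at 3.61, 2.28 and 5.63 CPM in S1 to S3, and at 62.6, 65.0, 40.9 and 24.3 CPM in S4 to S7. Hbb-bs, an adult beta globin, had the reverse order, with 390, 553 and 345 CPM in S1 to S3 and 82.1, 102, 78.7 and 39.6 CPM in S4 to S7. Myh7, the slow and cardiac myosin, varied from 2.09 CPM in S3 to 49.4 CPM in S6. Divided by the summed level of the muscle fiber list, Myh4 spanned 1.65-fold, Atp2a1 1.34-fold, Ddx3y 1.83-fold and Dcn 1.47-fold, while Hbb-bs spanned 9.17-fold and Myog, a differentiation factor of muscle, 12.4-fold. As a description, the span was over 4-fold for 214 (38.9%) and under 2-fold for 102 (18.5%) of the 550 genes with a log2 fold within 1 of the muscle scale and a mean of at least 10 CPM in S1 to S7, with a median of 3.33-fold. These genes were chosen by their level in S1 to S7 and need not share a source. A single tissue RNA of fixed composition, mixed in different amounts, gives a span of 1 for every gene it alone supplies, and whether these genes have other sources was not tested. Myod1, Hbb-bs and Myog were singled out after their values were seen.

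Genes of cell division were lower in every library of S1 to S7. All 18 S phase genes tested and all 20 M phase genes tested were lower without overlap, with median log2 folds of -2.44 and -2.54. The 38 genes combined had a median of -2.50, which dilution alone would give if 82.4% of the RNA in S1 to S7 came from another source. Mki67, the proliferation antigen Ki-67, was at 58.6, 15.2, 69.9, 33.9, 3.24, 64.7 and 122 CPM in S1 to S7 and at 310, 283, 177 and 375 CPM in S8 to S11. Mcm6 was at 6.48 to 84.3 CPM against 170 to 306 CPM, and Top2a, the topoisomerase of mitotic chromosomes, at 9.50 to 127 CPM against 409 to 574 CPM. S5 was the lowest library for all 3 genes. The M phase genes lay close together, from -2.97 for Top2a to -2.02 for Ccnb2, and all 20 were within 1 of the shared median on the log2 scale. The lowest S phase gene was Rrm2, a ribonucleotide reductase subunit, at -3.68.

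Matrix and mesenchymal genes had a similar median in the edgeR fit. The collagen list of 14 genes had a median log2 fold of -2.60 (83.6% of RNA from another source under dilution alone), the 20 other matrix genes -2.28 (79.4%) and the 14 mesenchymal genes -2.10 (76.7%). Lower without overlap were 6, 8 and 6 of them. Col1a1, the main chain of type I collagen, was at 34.8, 2247, 248, 259, 354, 1512 and 5592 CPM in S1 to S7 and at 11637, 7228, 7431 and 9823 CPM in S8 to S11. Fn1, fibronectin, was at 96.5 to 3096 CPM against 5584 to 13779 CPM, and Vim, the intermediate filament vimentin, at 214 to 1280 CPM against 2179 to 3504 CPM. Col6a3 was the lowest collagen gene at -3.68 and Col4a1, a basement membrane chain, the highest at -1.76. Collagen minus S phase was thus -0.16 as a difference of medians, and its sign changed with the libraries kept. It was 0.09 without S1, 0.05 without S3, 0.10 without S8, 0.41 with the mouse as a replicate block and 0.39 in same-mouse pairs. Under all other alternatives it was below 0. It was -0.66 without S7, -0.47 without S2 and -0.46 in ovary lines alone. As a difference of mean log2 CPM it was -0.63 with a pseudocount of 1 and -0.57 with 0.1. Myc, at -2.34, was 0.16 above the S and M phase median.

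As medians of edgeR folds over the 2 groups, then, division, collagen, other matrix and mesenchymal genes sat between -2.60 and -2.10. As a difference of mean log2(CPM + 1), collagen was at -3.16 and S phase at -2.53, so the closeness depends on the measure. Of the 14 collagen genes 13 lay within 1 of the S and M phase median, as did 16 of the 20 other matrix genes. So did 9 of the 14 mesenchymal genes and 7 of the 12 housekeeping genes, against 3126 of all genes (19.6%). Of all genes tested, 104 (0.652%) lay more than 1 below it and 12724 (79.8%) more than 1 above it.

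Within S1 to S7 the same lists differed by unequal factors. The level of a list is given here as the median over its genes of each gene's percentage of its S8 to S11 mean. The S phase list was at 27.0, 7.26, 24.6, 15.6, 7.12, 24.2 and 33.4% in S1 to S7. The collagen list was at 0.888, 20.1, 7.81, 5.38, 5.50, 16.5 and 52.98%. S1 had one of the highest S phase levels and by far the lowest collagen level. S2 had one of the lowest S phase levels and a collagen level next below that of S7. The ratio of the collagen level to the S phase level ran from 0.0329 in S1 to 2.77 in S2, a span of 84.3-fold, while it ran from 0.788 to 1.36 in S8 to S11, a span of 1.73-fold. Leaving out S1 reduced the span in S1 to S7 to 8.75-fold, leaving out S2 to 48.1-fold and leaving out both to 4.99-fold. With the summed CPM of each list in place of the median over its genes, the ratio ran from 0.111 in S1 to 2.13 in S2, a span of 19.2-fold (6.04-fold without S1), against 0.670 to 1.24 in S8 to S11. For transcripts that the cells alone supply, 1 factor per library leaves this ratio as it is, and the collagen and S phase levels of RNA from another source are not known from these counts. The span covers lines of 3 organs or tumor sites and 5 mice, and what in the lines or libraries it goes with was not tested.

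**Figure D4:**
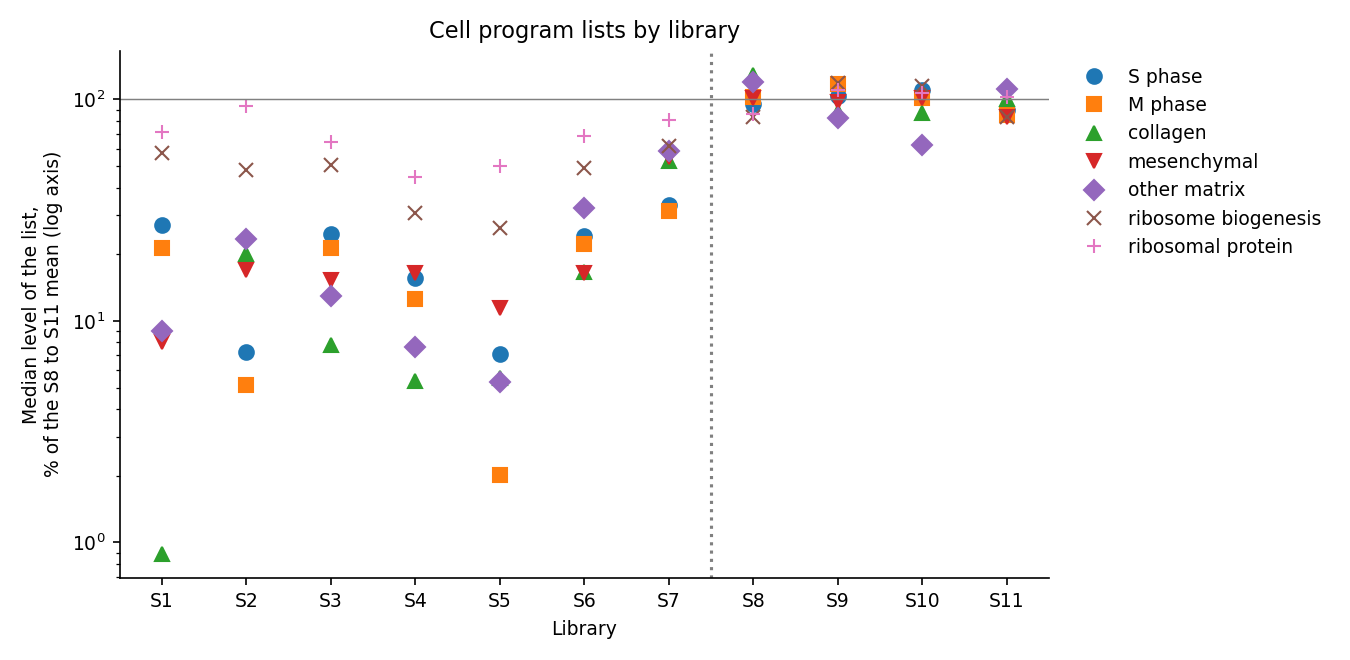
Median level of 7 cell program lists in each library as a percentage of their mean in S8 to S11 (log axis), with a line at 100% and a dotted line between S7 and S8. Collagen ranges from 0.888% in S1 to 52.98% in S7, while ribosomal protein genes stay between 44.8% and 93.8% in S1 to S7.

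**Figure D5:**
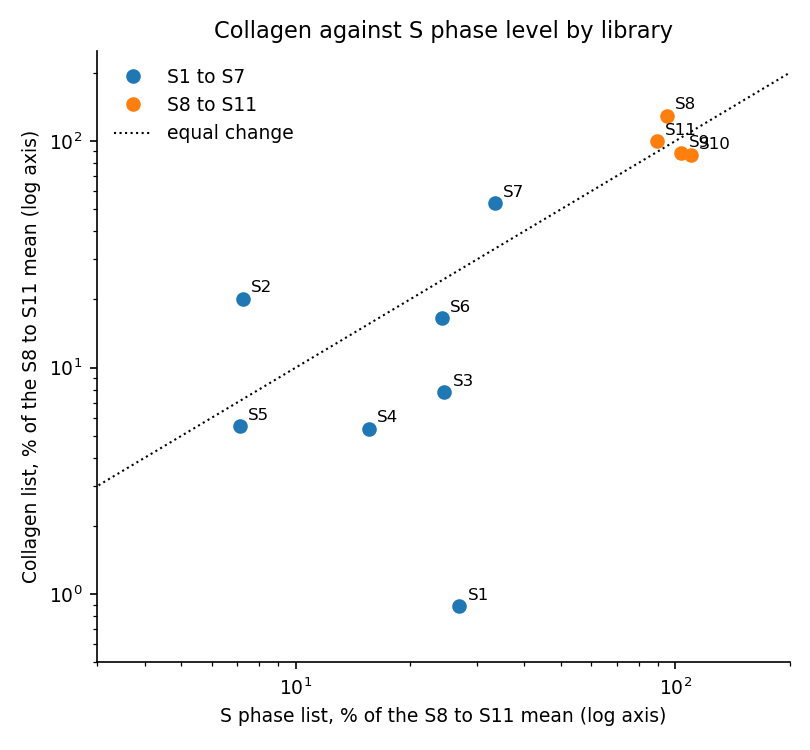
Median collagen level against median S phase level of each library, both as a percentage of the S8 to S11 mean on log axes, with a dotted line where both change alike. S1 and S2 lie far from the line on opposite sides, with ratios of 0.0329 and 2.77.

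The S phase, collagen, other matrix and mesenchymal lists were compared within mice. For F318, S7 against S9, the median log2(CPM + 1) difference was -1.67 for S phase genes (18 of 18 lower) and -0.71 for collagen genes (11 of 14 lower). For F319, S6 against S10, it was -2.11 for S phase (18 of 18 lower) and -2.34 for collagen genes (12 of 14 lower). Other matrix genes differed by -0.44 (16 of 20 lower) in F318 and -1.02 (15 of 20 lower) in F319. Mesenchymal genes differed by -1.21 (11 of 14 lower) and -2.21 (13 of 14 lower), in the same order. Muscle fiber genes differed by 5.55 and 4.11 in these pairs, with 0 of 38 lower in either. The split was chosen on genes of this kind, so their direction in the pairs was set by that choice. The pair of F319 also differs in organ.

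The share of RNA from another source that the S phase level would need in each library was 73.0% in S1, 92.7% in S2, 75.4% in S3, 84.4% in S4, 92.9% in S5, 75.8% in S6 and 66.6% in S7. Muscle fiber genes, without Acta1, made up 20.6, 13.8, 19.9, 18.2, 17.1, 17.6 and 12.6% of that share, in the same order. The muscle share was thus nearly level in S1 to S6 while the S phase level differed by several fold among them. These shares assume that the cells of S1 to S7, taken alone, had the S phase level of S8 to S11, and fewer dividing cells cannot be told apart from less RNA of dividing cells.

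Several classes were less low than the division genes. Housekeeping genes had a median log2 fold of -1.53, with 8 of 12 lower without overlap and Gapdh, a glycolytic enzyme, higher at 0.999. Ribosome biogenesis genes, many of them known Myc targets, had -1.14, with 11 of 18 lower without overlap. The nucleolar protein Ncl was at 320 to 793 CPM in S1 to S7 against 896 to 1792 CPM, and Rrp12 was the exception at 0.92. Ribosomal protein genes had -0.56 and ranged from -1.61 for Rpl3 to 0.21 for Rplp1. Of them 5 of 19 were lower without overlap, near the share of all genes (26.1%). Gapdh and the ribosomal protein genes have many near-identical pseudogenes, as the globin genes have near-identical copies, and their levels depend on how such reads were assigned. Taken as dilution, these medians would need 65.4, 54.5 and 32.1% of RNA from another source that lacks them, against 82.4% for division genes. A source that expresses a gene itself lowers it less, and the counts do not give the level in that source.

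Mitochondrial genes were higher, but by much less than the muscle scale. The 16 nuclear genes of the respiratory chain and citric acid cycle had a median log2 fold of 1.85 and the 9 genes of the mitochondrial genome 1.86, with 15 and 8 of them higher without overlap. Cox5a, a cytochrome oxidase subunit, was at 201 to 475 CPM in S1 to S7 against 35.6 to 78.7 CPM in S8 to S11. No gene of either list lay within 1 of the muscle scale. In the whole table, 5007 genes (31.4%) were higher but more than 1 below that scale, and 1097 (6.88%) were within 1 of it.

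Some lists split into members of opposite direction. The smooth muscle list had a median of -2.10 over 9 genes tested, with 3 higher and 2 lower without overlap. The edgeR fit called 3 of them higher and 5 lower. Des, the desmin of all muscle types, had a log2 fold of 4.22, Synpo2 4.07 and Myh11 2.56, all without overlap. Cnn1, calponin, had -2.77, at 2.27 to 231 CPM against 256 to 471 CPM, and Actg2, the enteric actin, -3.55. In the matrix list the proteoglycan Dcn was higher at 256, 261, 215, 323, 304, 250 and 160 CPM in S1 to S7 against 31.8, 12.1, 23.3 and 23.6 CPM. Lum (3.71) and Eln (2.68) were also higher. These 3 were the genes of the 20 that were higher without overlap, against 17.1% of all genes. Decorin, lumican and elastin are matrix products of connective tissue, including that of muscle.

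Of the 14 p53 target genes the median was 0.13, with 4 lower and 1 higher without overlap. Of all genes, 26.1% were lower and 17.1% higher without overlap. The stress cytokine Gdf15 was lowest at -5.78, with 0.358 to 1.31 CPM in S1 to S7 and 22.5, 41.9, 1.18 and 84.7 CPM in S8 to S11, so that S10 fell within the range of S1 to S7. Cdkn1a, the p21 inhibitor of the cell cycle, was at 291, 196, 664, 16.3, 17.0, 134 and 227 CPM in S1 to S7 and at 35.6, 49.7, 87.7 and 31.6 CPM in S8 to S11. S4 and S5 were below all of S8 to S11 and the other 5 above them. The ranges of Mdm2 overlapped, at 74.6 to 109 against 68.0 to 114 CPM. Interferon-stimulated genes had a median of -1.59 with 0 of 10 genes free of overlap. Their summed level was 421 CPM in S8 and 20.9, 67.5 and 23.9 CPM in S9 to S11, against 25.6 to 64.1 CPM in S1 to S7, so S8 stood apart from the other 10 libraries. Ifit1, one of them, was at 69.8 CPM in S8 and at no more than 8.39 CPM elsewhere. Immediate early genes had -0.02, a sign that turned positive under all 3 other scalings. Of the epithelial list 4 of 12 genes were tested, with a median of 0.51 and 0 without overlap. Krt18, a simple keratin, was at 39.9 CPM in S1 and 67.9 CPM in S6 and at no more than 5.82 CPM in the other 9 libraries. Krt7 was at 12.04, 16.6 and 40.5 CPM in S6, S10 and S11 and at no more than 1.83 CPM elsewhere. Of the members below the filter, Krt8 reached 52.7 CPM, Muc16 5.06 CPM and Pax8 3.04 CPM in S6, and the surface marker Epcam was at no more than 2.12 CPM in any library.

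The genes with the largest differences were taken for their size, so their distance from the muscle scale and from the division genes is fixed by that choice. In all, 289 genes (1.81%) were more than 1 above the muscle scale. The 12 largest among genes without overlap and with a mean of at least 5 CPM were all at least 2.51 above it on the log2 scale, among them Foxa2, Vsig2, Prima1, Gpm6a, Nt5c1a, Adamts15, Dhh, Ucn, Abcc8 and Myh7. Vsig2, which encodes an immunoglobulin domain protein, was at 4.25, 3.73, 17.2, 4.87, 4.42, 9.72 and 11.9 CPM in S1 to S7 and had 6 counts in all in S8 to S11. Foxa2, a transcription factor of gut and gland epithelium, was more uneven within S1 to S7: it was at 10.5, 6.71, 4.67 and 12.4 CPM in S1, S3, S4 and S6 and at no more than 0.457 CPM in S2, S5 and S7. It had 1 count in S8 to S11 in all, a pooled ratio of 529 (95% interval 94.7 to 20946, counting error only). Gpm6a, a neuronal membrane glycoprotein, was at 31.0 CPM in S6 and at most 1.65 CPM elsewhere, and Dhh, a hedgehog ligand, at 33.7 CPM in S4 and at most 6.85 CPM elsewhere. For 2 of the 12, more than 50% of the summed S1 to S7 level came from 1 library.

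On the other side, the 12 largest were at least 1.54 below the S and M phase median: Gpr141, Car6, B4galnt2, Trim66, Rspo2, Nxph4, Glrb, Peg10, Soat2, Csrp2, Cd109 and Diras2. Gpr141, an orphan receptor, was at no more than 0.343 CPM in S1 to S7 and at 6.63, 81.3, 0.666 and 19.9 CPM in S8 to S11. Peg10, an imprinted gene of retrotransposon origin, was at 0.147 to 15.0 CPM against 484, 50.5, 106 and 44.7 CPM. Csrp2, a LIM domain protein of smooth muscle and stellate cells, was at 5.41 to 26.0 CPM against 229, 171, 114 and 228 CPM, the most even of these 3 within S8 to S11. For 6 of the 12, more than 50% of the summed S8 to S11 level came from 1 library. The part that single lines play in them was not tested.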

How the data were processed

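RNA of 11 OvTrpMyc lines was selected for poly(A), prepared with a directional kit and sequenced as paired ends. The authors aligned the reads with RNA STAR to GRCm38 (mm10), discarded PCR duplicates (SAMtools RmDup), assigned reads to genes with featureCounts and deposited the raw counts. Versions and the strand setting of the counting are not given in the sources used here.

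Library numbers were taken from the labels. CPM were computed on the deposited totals (13580525 to 27044598 counts, where 3 counts correspond to 0.111 to 0.221 CPM), because factors such as TMM would remove an even dilution. Log2 fold changes came from edgeR 4.0.16 (quasi-likelihood fit, filterByExpr, no TMM factors) in R 4.3.3, with DESeq2 1.42.0 as an alternative, and summaries from Python 3.11.15 and pandas 2.3.3. In simulated counts for this comparison, 200 of 200 genes changed by a log2 fold of 2 were recovered, with 9 false calls among 15723 genes. The simulation drew independent libraries with the same dispersion for every gene and changed only well-counted genes. It therefore does not show how the fit performs on these lines. Intervals cover counting error only. Since the groups are single libraries of different lines, the spread holds line, organ and library together.

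The split, the members and the 27 gene lists were chosen with earlier results of these data known, so no test of a list was made. Named genes were the 4 markers; among genes without overlap, with a mean of at least 5 CPM and a proper gene name, the 12 with the largest fold each way and the 12 of highest level each way with a log2 fold of at least 1; and of each list the highest, the lowest and the exceptions. The alternatives were another scaling, test, filter, or pseudocount, ovary lines alone, each library left out, the mouse as a replicate block, and same-mouse pairs; the spans of collagen over S phase without single libraries or from summed CPM and the lists without their leading gene were added after the data were seen. The pairing comes from the animal: F318 and F319 each have a line on both sides. Positions are from GENCODE M21 and promoters from RefSeq (GRCm38.p6). List genes without a row (Acta1, Mymk, Mymx, Ahsp, Gad1, Cdt1, Gins2, Rpl13 and Cox4i1) were not analysed here. A few genes named by these rules are not reported here.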

Additional observations from a re-analysis of the deposited data

Results flagged for a closer look

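Of 150 checks for a library far from the rest of its group by Dixon's ratio (the gap to the nearest library over the range of the group), 12 passed the 95% critical value, and chance passes about 1 in 20. Among lists, S7 was low for the muscle fiber list (0.663), with 83876 CPM, and for Actn3, alpha-actinin of fast fibers (0.612), with 3385 CPM. S3 was low for the slow fiber list (0.573), with 154 CPM, S2 for the immediate early list (0.588), with 337 CPM, and S11 for the neuron list (0.919), with 0.743 CPM. Among genes higher in S1 to S7, S6 was high for Gpm6a (0.764), S3 was high for Ucn (0.641), with 22.0 CPM, S8 was high for Foxa2 (1.0) through its single count, and S10 was low for Adamts15 (0.850), with 0 CPM. Among genes lower in S1 to S7, S2 was high for the Wnt agonist Rspo2 (0.636), with 11.01 CPM, S7 was high for Nxph4 (0.672), with 2.06 CPM, and S9 was high for the glycine receptor subunit Glrb (0.971), with 14.3 CPM.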

How the results depend on the processing

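The difference between the collagen and S phase medians ran from -0.66 to 0.41 over the alternatives, and the neuron and immediate early medians, near 0, changed sign under the 3 other scalings. The edgeR calls, mostly lower on the deposited totals, were 4769 higher and 4568 lower with TMM factors and 4828 and 4515 with DESeq2 size factors. The collagen and S phase medians stayed below 0 under every alternative run. The muscle fiber share also stayed higher, but the split was chosen on muscle genes. The groups do not overlap on that share or on any S phase gene tested, so leaving out libraries could not turn either. Leaving out 1 library at a time, the genes higher without overlap numbered 2668 to 3166 and those lower 4201 to 4907. With TMM factors they were 3514 higher and 3027 lower, and with DESeq2 size factors 3534 and 3016, so the majority turned. With totals that leave out the muscle fiber genes they were 3131 and 3464, and in ovary lines alone 3801 and 5960. The edgeR calls were then 3428 to 3755 higher and 5488 to 6262 lower. The S phase median ran from -2.61 to -2.26, the collagen median from -3.28 (without S7) to -2.34, and the fold of the muscle fiber share from 12.8 (without S9) to 20.2 (without S11). The S phase median was -2.11 with TMM factors, -2.09 with DESeq2 size factors and -2.10 in ovary lines alone. The collagen median was -3.16 as a difference of mean log2(CPM + 1) and -3.26 with a pseudocount of 0.1. With the mouse as a replicate block, which pairs lines by animal, edgeR called 1867 genes higher and 1401 lower, and the medians were -1.91 for S phase and -1.50 for collagen. In the same-mouse pairs alone they were -1.89 and -1.50. DESeq2's Wald test called 5163 genes higher and 4698 lower. The cause of these shifts was not tested. Genes below 0.111 to 0.221 CPM, the level of 3 counts, cannot be told from 0.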
